A study of Homo sapiens with 4 samples.

Results

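The loops described here are the SMC1 contacts around MYC, the gene of a transcription factor that drives cell growth and proliferation. They were taken as every listed loop on chromosome 8 with at least 1 anchor between 126 and 129 Mb (build hg38), and the MYC gene itself lies at 127735434 to 127742951. Of 41846 loops listed in any library, 37 met this rule. All 37 have an anchor in the window from 126 to 128 Mb. The region was chosen by the pooled contact counts of that window, which were low in the hydroxyurea library relative to its vehicle. Its hydroxyurea ratio is therefore a description here and not a finding.

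Chromatin contacts were captured on SMC1, part of the cohesin ring, by HiChIP, which joins proximity ligation of cross-linked chromatin with immunoprecipitation. All libraries came from GM12878, a B lymphoblastoid line transformed with Epstein-Barr virus, according to the source, cell line and library names, although the titles carry the name of a different lymphoblastoid line. The groups were hydroxyurea (HU, 0.2 mM), which starves cells of deoxynucleotides, with its vehicle water (H2O), and aphidicolin (APH, 0.4 µM), an inhibitor of replicative DNA polymerases, with its vehicle dimethyl sulfoxide (DMSO). The drugs were given for 18 h. Each group holds 1 library from 1 line, so differences have no replicate check, compare libraries rather than treatments, and cannot be told apart from a batch. Intervals below are 95% exact intervals that cover counting error only. Reads counted without molecular identifiers can be copies of 1 molecule, so the intervals may be too narrow even for that error. In a bulk assay, fewer cells with a contact and weaker contact per cell cannot be told apart.

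Cohesin extrudes chromatin loops that are often halted at CTCF sites, and such loops bring distant enhancers near promoters. MYC lies in a long stretch with few other protein-coding genes, and its enhancers differ between cell types and can be far from the gene. In B cells transformed by Epstein-Barr virus, super-enhancers bound by the viral nuclear antigens lie far upstream of MYC and contact it. PVT1, a long noncoding RNA gene just downstream of MYC, has a promoter known to compete with that of MYC for enhancers in some cell lines. Long noncoding RNA genes of the upstream stretch, CCAT1, CASC8, CASC19 and CASC21, were named for their links to cancer, and the intervening POU5F1B is a retrogene of the POU5F1 family.

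The HU library listed 19 loops of the region with 675 contact counts, and H2O listed 28 with 1181. APH listed 21 with 955 counts, and DMSO listed 21 with 838. As a share of all listed counts, the region held 0.123% in HU (0.113 to 0.132), against 0.205% in H2O (0.194 to 0.217). It held 0.130% in APH (0.122 to 0.139), against 0.186% in DMSO (0.174 to 0.199). The share was thus lower in each drug library than in its vehicle, which for HU follows from how the region was chosen. Over the loops listed in all 4 libraries alone, the shares were closer, at 0.157% in APH and 0.178% in DMSO. As shares of listed loops, the intervals overlapped. They were 0.089% in HU (0.053 to 0.138) and 0.125% in H2O (0.083 to 0.180), and 0.077% in APH (0.047 to 0.117) and 0.119% in DMSO (0.074 to 0.182). The APH list is the longest, with 27395 loops against 17660 in DMSO, and its region nevertheless held no more loops than that of DMSO. The HU and H2O lists hold 21448 and 22446 loops. A listed sum moves with how many pairs were called, and the region's mean count per loop was 35.5 in HU and 42.2 in H2O, and 45.5 in APH and 39.9 in DMSO. The anchors covered 75 kb in HU and 95 kb in H2O, and 100 kb in APH and 80 kb in DMSO. Every listed pair has at least 12 counts, at least 2 times its deposited expected count and an adjusted p below 0.01, so an unlisted pair is not a 0.

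**Figure D1:**
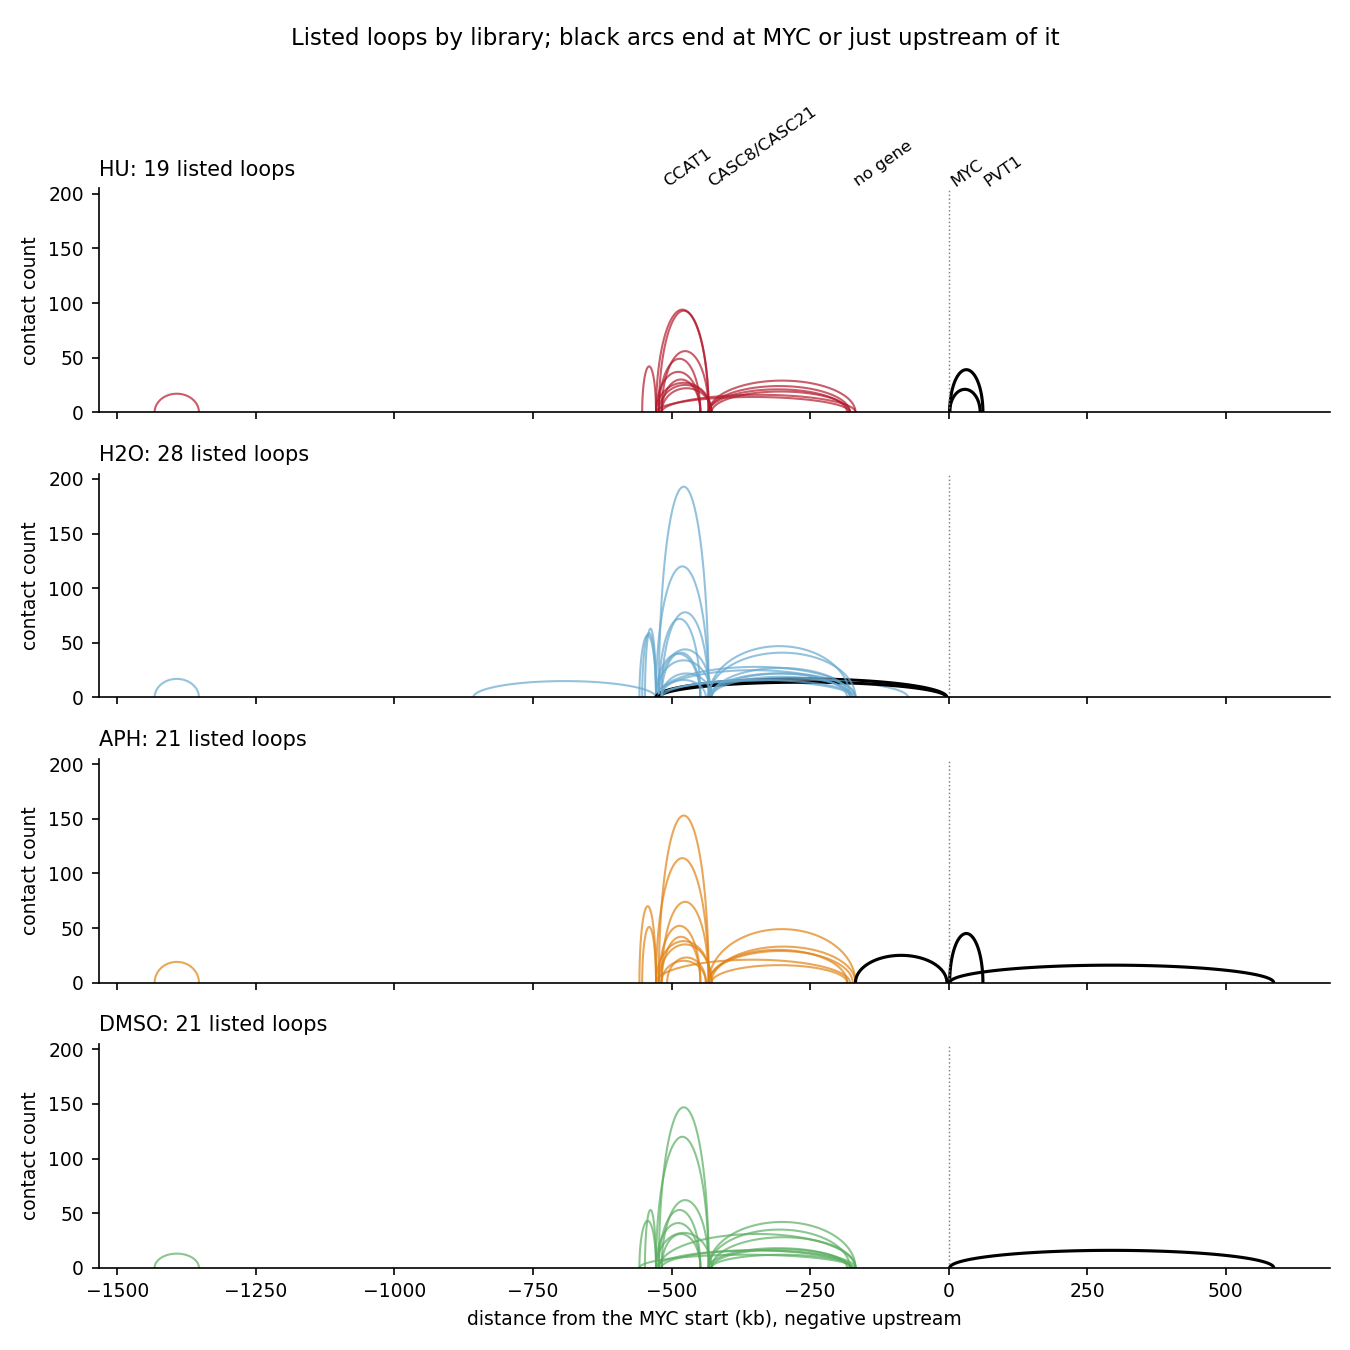
Listed loops of the region in the HU, H2O, APH and DMSO libraries, drawn as arcs between the middles of their 5 kb anchor bins. The x axis gives the distance from the MYC start in kb and the height of an arc its contact count, with loops on MYC or the bin just upstream in black. The tallest arcs join CCAT1 to CASC8 and CASC21 in all 4 libraries, at up to 94 counts in HU and 193 in H2O, while black arcs differ between libraries.

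Most of the loops gathered far upstream of MYC. An anchor between 550 and 400 kb upstream of the MYC start was present in 31 of the 37 loops. This band was set with earlier results of these data known, from the place where viral super-enhancers of lymphoblastoid cells are described. Bins closer together than 10 kb were joined into places, a grouping made after the positions were seen. One place, at 127205001 to 127230000, lies on CCAT1 except for its last bin, from 127225001, and is named by that gene. Another, at 127285001 to 127310000, lies on the bodies of CASC8 and CASC21. The next, at 127550001 to 127570000, overlaps no annotated gene and lies 183 to 168 kb upstream of the MYC start by the middles of its bins. The last of these, at 127175001 to 127190000, reaches CASC19 on the far side of CCAT1. POU5F1B and LRATD2, the other protein-coding genes between the outermost anchors, carried no listed loop.

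Contacts between CCAT1 and CASC8 with CASC21 dominated the region in every library. They made up 64.1% of the region's listed counts in HU (60.4 to 67.8), against 55.9% in H2O (53.0 to 58.7). In APH they made up 57.7% (54.5 to 60.9), against 58.0% in DMSO (54.6 to 61.4). The HU share was the highest of the 4, and its interval did not reach that of H2O but overlapped those of APH and DMSO. Such a share moves with which other pairs were listed. Over the 10 loops listed in all 4 libraries, these contacts held 349 of 430 counts in HU and 538 of 643 in H2O. They held 473 of 592 in APH and 445 of 534 in DMSO, and the HU share was then below those of H2O and DMSO. The share of listed counts between the CASC19 side and CCAT1 was lower in HU, at 6.22% (4.52 to 8.32), than in H2O, at 15.2% (13.2 to 17.3). HU listed 1 pair of bins there with 42 counts, against 3 pairs with 179 counts in H2O. APH listed 2 pairs with 121 counts, against 2 pairs with 96 in DMSO. These pairs lie near the limit of 2 times the expected count, at 2.35 in HU and at 2.40, 2.40 and 2.00 in H2O. The share therefore moves with which pairs were listed. Scaled by the loops listed in all 4 libraries, the pair listed in both HU and H2O had a log2 ratio of -0.47 (-1.08 to 0.12).

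The most heavily counted loop of the region spans 90 kb, from the CCAT1 bin 127210001 to 127215000 to the CASC8 and CASC21 bin 127300001 to 127305000. It had 93 counts in HU and 193 in H2O, and 153 in APH and 147 in DMSO. By count it ranked 302 of 21448 loops in HU and 13 of 22446 in H2O, and 101 of 27395 in APH and 41 of 17660 in DMSO. Its neighbour, from the CCAT1 bin 127205001 to 127210000 to the same far anchor, had 94 counts in HU and 120 in H2O, and 114 in APH and 120 in DMSO. In each library at least 98.5% of listed loops had fewer counts than either of them. By observed over expected count both were below the median listed loop in every library. The first stood at 3.34 in HU and 4.53 in H2O, and at 4.04 in APH and 4.06 in DMSO. Those values exceeded 20.9% of the loops listed in HU, 41.0% in H2O, 36.1% in APH and 29.2% in DMSO. The neighbour stood at 3.41 in HU and 2.97 in H2O, and at 3.23 in APH and 3.64 in DMSO. It exceeded 22.5% of the loops listed in HU, 14.7% in H2O, 21.4% in APH and 23.1% in DMSO.

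The anchors of these loops took part in several others. The near bin of the most counted loop, 127210001 to 127215000, had 3 listed loops in HU and 6 in H2O, and 3 in APH and 3 in DMSO, more than 81.3% of anchor bins in HU, 96.9% in H2O, 78.9% in APH and 81.6% in DMSO. The neighbouring CCAT1 bin at 127205001 to 127210000 took part in 5 listed loops in HU and 10 in H2O, and in 5 in APH and 6 in DMSO. The median anchor bin of each library takes part in 1 loop, and 95.3% of anchor bins in HU had fewer loops than this one, 99.7% in H2O, 93.6% in APH and 97.5% in DMSO. The CASC8 and CASC21 bin at 127300001 to 127305000 took part in 6 loops in every library. Adjacent bins share the same underlying contact, so these loops are not independent of each other.

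Loops on MYC itself were few, and no such loop was listed in all 4 libraries. Only 3 listed loops had an anchor on the MYC gene body, all from the bin 127735001 to 127740000. The first, of 60 kb, joins MYC to the start of PVT1, in the bin that also holds the microRNA gene MIR1204. It had 39 counts in HU and 45 in APH, and was listed in neither H2O nor DMSO. HU alone also listed the adjacent pair, of 55 kb and 21 counts, whose far anchor overlaps the first bases of PVT1. Over all loops, 5.69% were listed in HU and APH and in neither vehicle, and the MYC to PVT1 loop was the single one of the region's 37, or 2.70%. Its observed over expected count was 2.53 in HU and 2.62 in APH, close to the value of 2 below which no pair is listed. Just 5.53% of the loops listed in HU and 8.57% of those in APH had a lower value. Whether the vehicles had fewer contacts here cannot be read from the lists.

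The other loop on the MYC body reaches 585 kb downstream, to the bin 128320001 to 128325000, where no gene is annotated. It had 16 counts in APH and 16 in DMSO and was listed in neither HU nor H2O. Scaled by the loops listed in all 4 libraries, its log2 ratio of APH over DMSO was -0.33 (-1.42 to 0.77), an interval too wide to show a difference. Its observed over expected count was 4.54 in APH and 5.18 in DMSO.

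Listed contacts between the upstream band and the MYC side appeared only in H2O. The bin 127730001 to 127735000 ends 434 bp before the annotated MYC start and overlaps CASC11, a long noncoding RNA gene next to MYC. H2O listed 17 counts between this bin and the CCAT1 bin 127205001 to 127210000, at 4.31 times the expected count, with the authors' adjusted p of 2.22e-05. It listed 14 counts from the next CCAT1 bin, at 3.48 times the expected count and an adjusted p of 0.00134 in the authors' list. HU, APH and DMSO listed neither pair, and no library listed a pair between the band and the MYC gene body. APH alone listed 25 counts between the same MYC-side bin and the gene-free place 168 kb upstream, at 3.21 times the expected count. Pairs from upstream to the MYC side were thus listed in H2O and APH only, each of them in 1 library and with few counts. H2O alone held 6 of the region's 37 loops, or 16.2%, where 11.9% of all loops were listed in H2O only. All 6 start at the CCAT1 bins 127205001 or 127210001, and besides the MYC side they reach 127660001 with 17 counts, the gene-free place with 28 and 15, and 126875001, far upstream in the noncoding gene LOC105375751, with 15.

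Lists of a drug and its vehicle overlapped in part. Of the 28 H2O loops in the region, 17 (60.7%) were listed in HU, where the share over all H2O loops was 58.5%. The same 17 were 89.5% of the 19 HU loops, where the share over all HU loops was 61.3%. Of the 21 DMSO loops, 13 (61.9%) were listed in APH, where the share over all DMSO loops was 75.3%. These 13 were also 61.9% of the APH loops, where the share over all was 48.6%. H2O listed 18 of the 21 DMSO loops (85.7%), where the share over all was 70.6%, and these were 64.3% of the H2O loops, where the share over all was 55.6%. Loops listed in HU, H2O and DMSO but not in APH numbered 4, or 10.8% of the region's loops, where 1.48% of all loops had this pattern. All 4 have an anchor on CCAT1 or on CASC8 and CASC21, as do most of the region's loops. They include the pairs from 127300001 and from 127305001 to 127555001. In the bins next to these, APH alone listed 127300001 to 127560001 with 29 counts and 127305001 to 127550001 with 16. A pair missing from the APH list thus need not mean missing contacts. The pattern was noticed after the lists were seen and was not tested.

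The remaining loops fell into small classes. HU alone listed 1 loop (2.70%, against 9.94% of all loops), the shorter MYC to PVT1 pair. APH alone listed 4 (10.8%, against 18.3% of all loops), of which 2 join CASC8 and CASC21 to the gene-free place with 29 and 16 counts. Of the others, 1 joins the bin 127225001, past the end of CCAT1, to CASC8 and CASC21 with 23, and 1 is the MYC-side pair above. DMSO alone listed 2 (5.41%, against 5.6% of all loops), both ending at the gene-free place, with 31 counts from CCAT1 and 12 from the CASC19 side. H2O and DMSO but neither drug library listed 2 (5.41%, against 2.03% of all loops). One of them joins the CASC19 bin 127185001 to CCAT1 over 20 kb, with 63 counts in H2O and 53 in DMSO, and the other joins CASC8 and CASC21 to the gene-free place with 19 in H2O and 12 in DMSO. Another 4 loops were listed in every library but one, 2 of them missing in HU (5.41%, against 3.52% of all loops) and 2 in DMSO (5.41%, against 4.9% of all loops). Of those missing in HU, the 30 kb pair from 127175001 to CCAT1 had 57 counts in H2O, 70 in APH and 43 in DMSO, and the pair from 127305001 to 127565001 had 22 in H2O, 33 in APH and 28 in DMSO. Of those missing in DMSO, the 25 kb pair from 127180001 to CCAT1 had 42 counts in HU, 59 in H2O and 51 in APH, and the pair from CCAT1 to 127305001 had 25 in HU, 44 in H2O and 35 in APH. A pair between CCAT1 and CASC8 with CASC21 was listed only in H2O, with 16 counts, and in APH, with 20, and another such pair only in HU and H2O, with 22 each. These classes held 2.70% of the region's loops each, against 4.76% and 2.25% of all loops. The 585 kb loop on MYC was the 1 listed only in APH and DMSO, or 2.70%, against 2.58% of all loops. The loops listed in all 4 libraries numbered 10, or 27.0%, against 22.8% of all loops.

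Counts could be compared between libraries for the 10 loops listed in all 4. Of these, 9 have an anchor in the upstream band and the other, of 80 kb between bins at 126300001 and 126380001, lies more than a megabase upstream on no annotated gene. To scale them, counts were divided by the library's sum over the 9529 loops listed in all 4 libraries, which was 322048 in HU and 325634 in H2O, and 376948 in APH and 300320 in DMSO. The 10 loops are those that passed the caller's limits in every library, so losses below those limits are not among them.

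**Figure D2:**
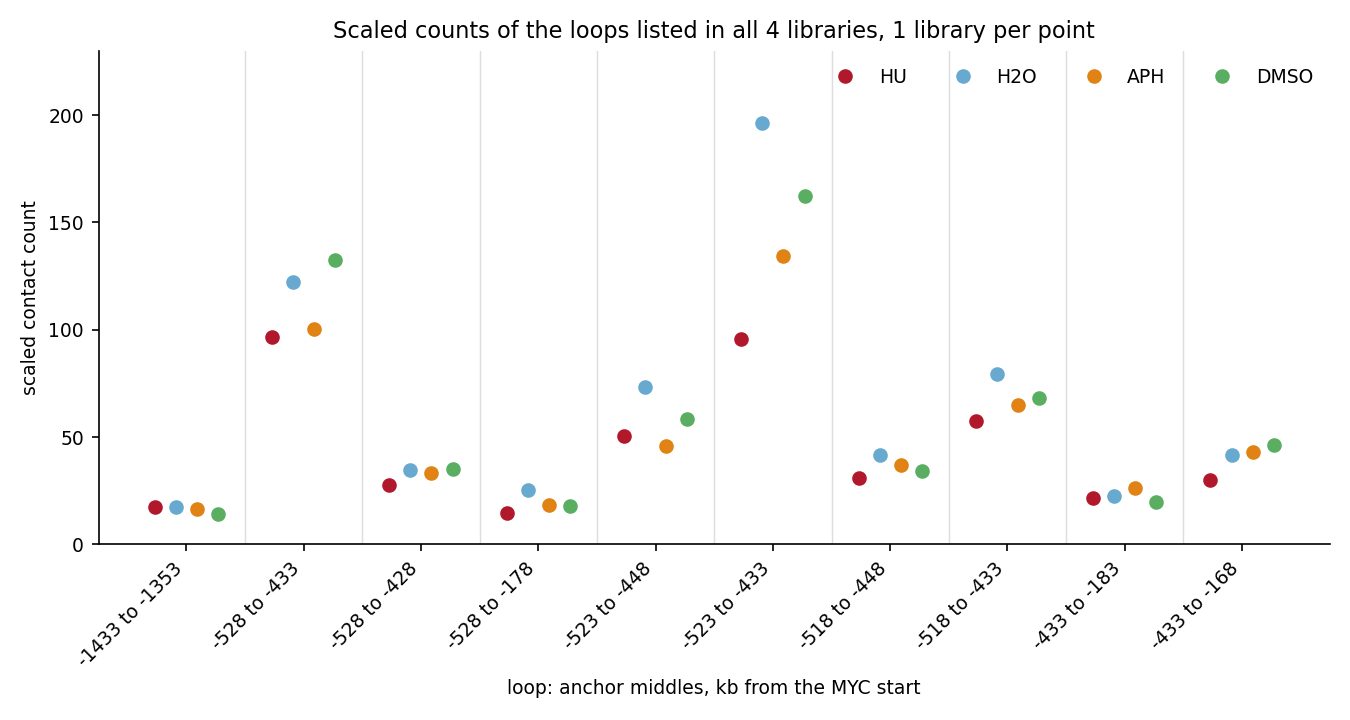
Scaled contact counts (y axis) of the 10 loops listed in all 4 libraries (x axis, anchor middles in kb from the MYC start), with 1 point per library. HU lies below H2O in 9 of the 10 loops, and the widest gap is at the loop with 93 counts in HU and 193 in H2O.

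Pooled over the 10 loops, HU had 430 counts and H2O 643. The scaled ratio was 0.676, or a log2 ratio of -0.56 (-0.74 to -0.39), and this is the quantity by which the region was chosen. The ratio was below 1 in 9 of the 10 loops, where 50.2% of all shared loops were below 1. At least 1.5-fold lower in HU were 2 of the 10, where 8.61% of all shared loops passed that fold downward. None was as much higher, where 8.42% of all shared loops were. The median log2 ratio of the 10 loops was -0.45, against -0.01 over all shared loops. The lowest was the 90 kb loop of CCAT1 at -1.04 (-1.41 to -0.67), the single loop of the 10 whose interval excluded 0. Next came the 350 kb loop from CCAT1 to the gene-free place, with 14 counts in HU and 25 in H2O (-0.82, -1.88 to 0.18), and the 75 kb loop from CCAT1 to the bin at 127285001, with 49 in HU and 72 in H2O (-0.54, -1.09 to 0.00). At the high end, the loop far upstream had 17 counts in both and stood at 0.02, the 250 kb loop from CASC8 and CASC21 to the gene-free place, with 21 counts in HU and 22 in H2O, stood at -0.05, and the 100 kb loop from CCAT1 to the bin at 127305001, with 27 in HU and 34 in H2O, stood at -0.32. Between these ends lay the 85 kb loop from the CCAT1 bin 127215001 to 127300001, the third by summed counts, with 56 counts in HU and 78 in H2O (-0.46, -0.98 to 0.05), and 74 in APH and 62 in DMSO (-0.07, -0.58 to 0.44). The 265 kb loop from 127300001 to the gene-free bin 127565001 lay there too, with 29 counts in HU and 41 in H2O (-0.48, -1.22 to 0.24), and 49 in APH and 42 in DMSO (-0.11, -0.73 to 0.52).

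Set against DMSO, the vehicle of the other drug, HU had 430 counts and DMSO 534, with a log2 ratio of -0.41 (-0.60 to -0.23). This contrast and that of the vehicles each share a library with the one that chose the region, so part of their direction is built in. In that contrast 2 of the 10 loops were at least 1.5-fold lower, where 8.51% of all shared loops were, and none was as much higher, where 8.26% were. H2O itself stood at 0.15 over DMSO (-0.02 to 0.32), and 3 of the 10 loops were below 1, where 50.8% of all shared loops were. None of the 10 loops differed 1.5-fold between the vehicles, where 5.34% of all shared loops were lower and 5.5% higher in H2O. Over the 18 loops listed in both vehicles the log2 ratio of H2O over DMSO was 0.15 (0.006 to 0.28), an interval that excludes 0. It was scaled by all loops listed in both.

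Loops listed in HU and H2O but not in every library add 7 to the 10. The lowest of these joins CASC8 and CASC21 to the gene-free place over 255 kb, with 24 counts in HU and 47 in H2O (-0.95, -1.73 to -0.21). Next is the 95 kb pair from the CCAT1 bin 127210001 to 127305001, with 25 in HU and 44 in H2O (-0.80, -1.57 to -0.06). The highest were a pair with 22 counts in both and a pair with 16 in both (0.02). Over all 17 the log2 ratio was -0.53 (-0.68 to -0.38), scaled by the sums over all loops listed in both HU and H2O.

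The ratio depended on 1 loop more than on the others. Without the 90 kb loop, the remaining 9 had 337 counts in HU and 450 in H2O, and the log2 ratio was -0.40 (-0.61 to -0.19). By pairs of places, the 6 loops between CCAT1 and CASC8 with CASC21 had 349 counts in HU and 538 in H2O (-0.61, -0.81 to -0.41). The 2 loops from CASC8 and CASC21 to the gene-free place had 50 counts in HU and 63 in H2O (-0.32, -0.88 to 0.24), an interval that includes 0. The difference between these kinds of loop was not tested.

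The contrast of APH with DMSO shares no library with the one by which the region was chosen. Its size is not set against that of HU, which the choice of region fixed to be low. APH had 592 counts and DMSO 534, a scaled ratio of 0.883 and a log2 ratio of -0.18 (-0.35 to -0.01). The ratio was below 1 in 6 of the 10 loops, where 52.7% of all shared loops were below 1. No loop was at least 1.5-fold lower or higher, where 7.87% of all shared loops passed that fold downward and 6.59% upward. The median was -0.08, against -0.02 over all shared loops. The lowest was the 95 kb loop from CCAT1 to CASC8 and CASC21, with 114 counts in APH and 120 in DMSO (-0.40, -0.78 to -0.02). Next were the 75 kb loop, with 52 counts in APH and 53 in DMSO (-0.36, -0.94 to 0.22), and the 90 kb loop, with 153 in APH and 147 in DMSO (-0.27, -0.61 to 0.07). The highest was the 250 kb loop from CASC8 and CASC21 to the gene-free place, with 30 counts in APH and 18 in DMSO (0.41, -0.48 to 1.34), followed by the loop far upstream (0.22, -0.87 to 1.36) and the 70 kb loop from CCAT1 to the bin at 127285001 (0.11, -0.59 to 0.83). By pairs of places, the 6 loops between CCAT1 and CASC8 with CASC21 had 473 counts in APH and 445 in DMSO (-0.24, -0.43 to -0.05), and the 2 loops from CASC8 and CASC21 to the gene-free place had 79 in APH and 60 in DMSO (0.07, -0.43 to 0.58). Without the 90 kb loop the pooled value was -0.15 (-0.35 to 0.05), an interval that includes 0. Over the 13 loops listed in both APH and DMSO it also did (-0.11, -0.27 to 0.05), scaled by all loops listed in both. The total of all listed loops moves with the length of the list. Scaled by it instead, the pooled value of the 10 loops was -0.56, including a shift of -0.38 common to every loop. Against H2O, a library of the contrast that chose the region, it was -0.33 (-0.49 to -0.17), with 1 loop at least 1.5-fold lower where 8.59% of all shared loops were, and none as much higher where 6.95% were.

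**Figure D3:**
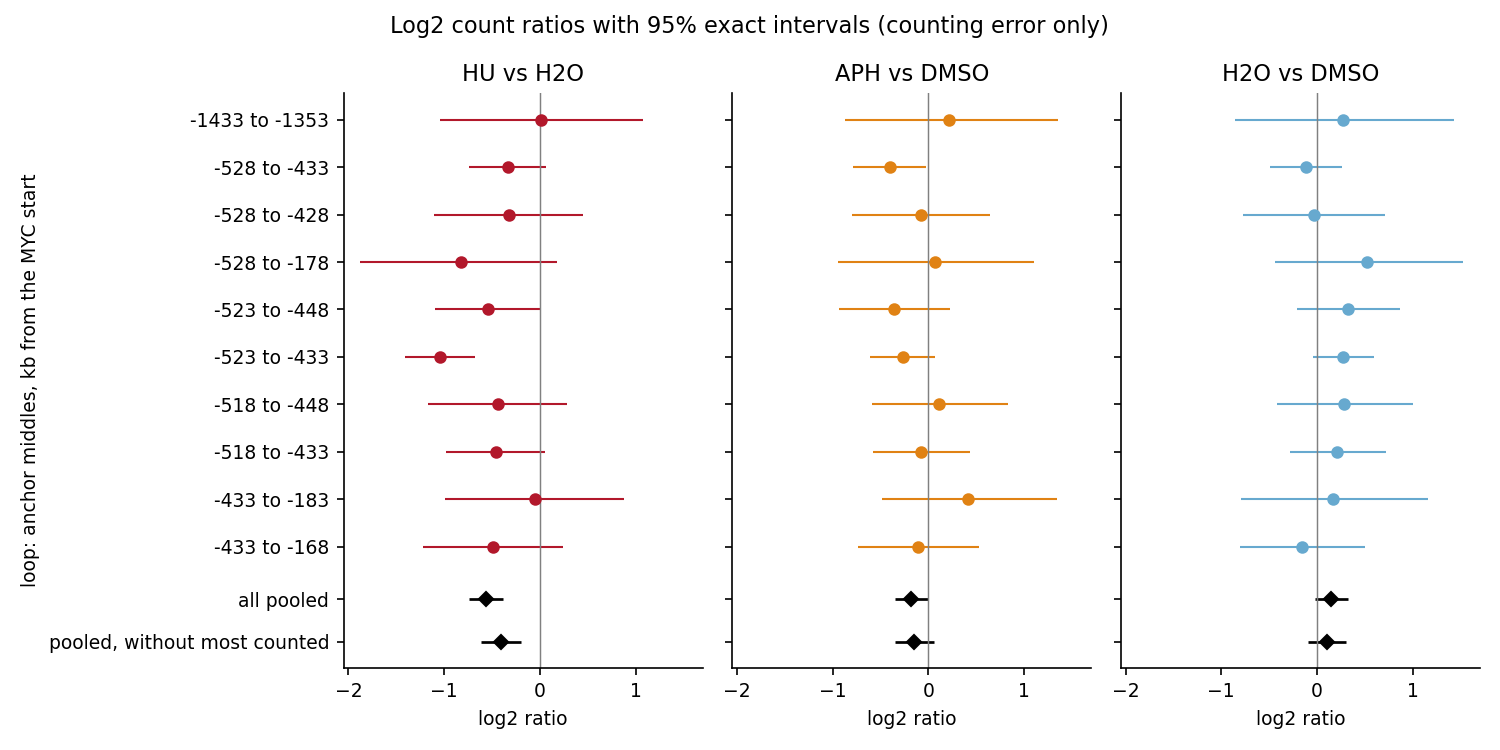
Log2 ratios (x axis) of the 10 loops listed in all 4 libraries and of their pooled counts (rows) for HU vs H2O, APH vs DMSO and H2O vs DMSO, with 95% exact intervals of counting error. The pooled value is -0.56 for HU, -0.18 for APH and 0.15 between the vehicles, and most single loops have intervals that include 0.

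The deposited expected counts moved with the contact counts. Pooled over the 10 loops and scaled alike, the expected count had a log2 ratio of -0.39 for HU vs H2O, next to -0.56 for the contact counts. For APH vs DMSO it was -0.21, next to -0.18. The median log2 ratio of the expected count was -0.34 in the region and 0.02 over all shared loops for HU vs H2O, and -0.22 and -0.07 for APH vs DMSO. Summed observed over summed expected count was 2.98 in HU and 3.36 in H2O, and 3.22 in APH and 3.15 in DMSO. The mean log2 ratio of observed over expected, relative to the median of all shared loops, was -0.06 for HU vs H2O and 0.08 for APH vs DMSO. Single loops spread to both sides, with log2 differences of observed over expected between -0.51 and 0.23 for HU vs H2O and between -0.19 and 0.63 for APH vs DMSO. The 6 loops between CCAT1 and CASC8 with CASC21 had a median of -0.24 for HU vs H2O, with 4 of the 6 below 0, and of 0.03 for APH vs DMSO, with 3 of the 6 below 0. Relative to all shared loops, 6 of the 10 loops were below the median for HU, and 4 of 10 for APH. What the caller's model takes into the expected count is not given in the sources used here.

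**Figure D4:**
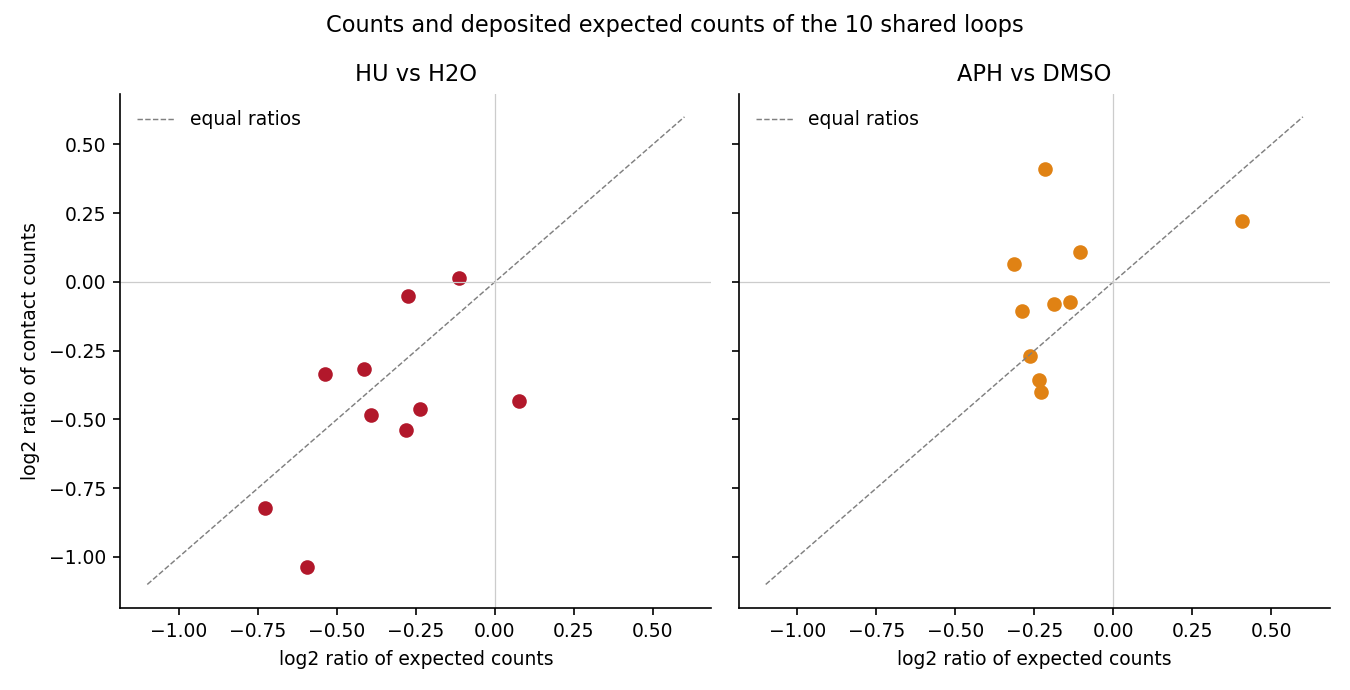
Log2 ratio of the contact counts (y axis) against the log2 ratio of the deposited expected counts (x axis), both scaled alike, for the 10 loops listed in all 4 libraries, in HU vs H2O and APH vs DMSO. The dashed line marks equal ratios. The log2 ratio of expected counts is below 0 for 9 of 10 loops in both panels, and its pooled value is -0.39 for HU and -0.21 for APH.

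The median span of the region's listed loops was 90 kb in HU and 175 kb in H2O, and 95 kb in APH and 250 kb in DMSO. Over all listed loops it was 95 kb in HU and 105 kb in H2O, and 95 kb in APH and 110 kb in DMSO. The region's loops were thus longer than the median loop in both vehicle lists. The 10 shared loops have a median span of 92.5 kb, against 115 kb over all shared loops, and 6 of them are shorter than 100 kb, a class that stood at 0.08 in HU vs H2O and 0.08 in APH vs DMSO over all shared loops. Relative to shared loops of the same span class, the region stood at -0.61 for HU vs H2O and -0.22 for APH vs DMSO.

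Other windows of chromosome 8 differed among themselves. Pooled, the other 335 shared loops of chromosome 8 stood at -0.03 for HU vs H2O (-0.07 to 0.01) and -0.03 for APH vs DMSO (-0.07 to 0.01). The window of 2 Mb just upstream, from 124 Mb, had 17 shared loops with 551 counts in HU and 587 in H2O (-0.08) and stood at -0.08 in APH vs DMSO. The window just downstream, from 128 Mb, had 3 shared loops, none of them inside the MYC region, with 94 counts in HU and 102 in H2O (-0.10) and stood at 0.08 in APH vs DMSO. The window from 122 Mb stood at 0.48 for HU vs H2O (0.17 to 0.79), with 212 counts in HU and 154 in H2O, and at 0.10 in APH vs DMSO (-0.20 to 0.40). The window from 134 Mb stood at -0.25 for HU vs H2O (-0.60 to 0.10) and at -0.33 for APH vs DMSO (-0.71 to 0.05). Just outside the rule, the loop of 515 kb from 129020001 to CCDC26, a long noncoding RNA gene, had 31 counts in HU and 33 in H2O, and 30 in APH and 29 in DMSO. On the other side, the loop of 585 kb from NSMCE2, a SUMO ligase gene, to 125700001 had 23 counts in HU and 29 in H2O, and 26 in APH and 23 in DMSO.

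Among windows of 2 Mb with at least 200 counts in both libraries, the MYC window had the lowest ratio of HU over H2O of 527, which is how it was picked. For APH vs DMSO it ranked 57 from the lowest of 523, where the central 90% of windows lay between -0.24 and 0.19.

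**Figure D5:**
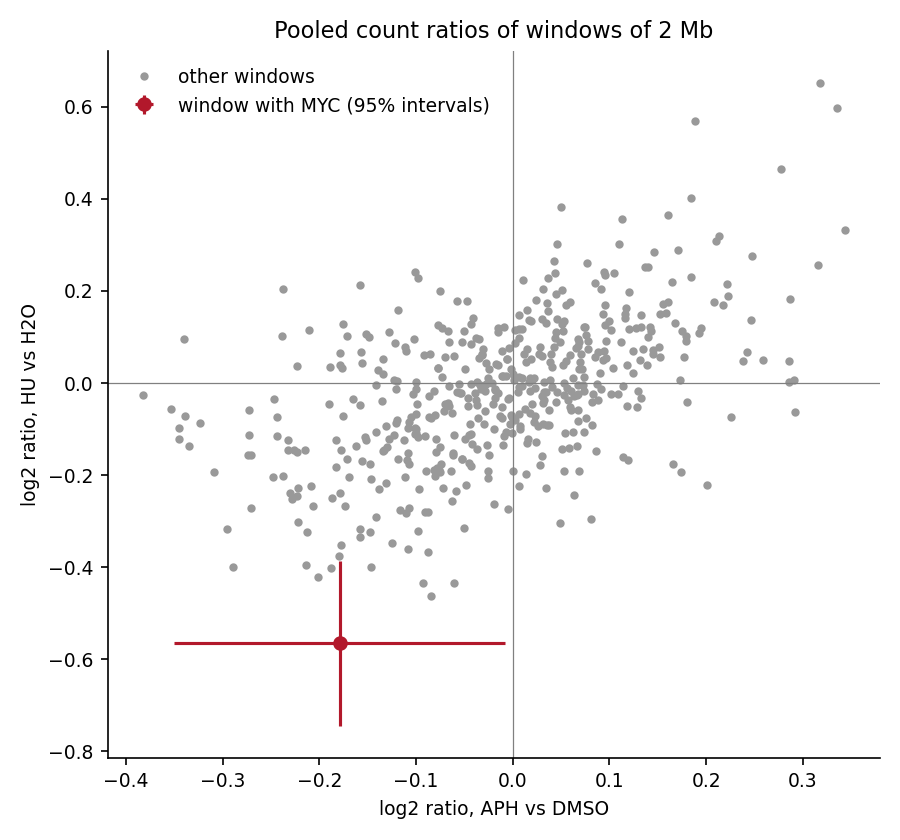
Pooled log2 ratios of 504 windows of 2 Mb with at least 200 counts in every library, HU vs H2O (y axis) against APH vs DMSO (x axis). A loop whose anchors lie in different windows counts in both. The MYC window, with 95% exact intervals, lies at -0.56 and -0.18, below all other windows on the y axis and within their range on the x axis.

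MYC has no loop listed in all 4 libraries, so its own pattern could not be set beside that of other genes. CCAT1, which carries 7 of the 10 shared loops, was used in its place, a choice made after the values were seen. It had 363 counts in HU and 563 in H2O (-0.62), and 494 in APH and 461 in DMSO (-0.23), with H2O over DMSO at 0.17. Likeness was taken as the Euclidean distance over these 3 log2 ratios among 2097 places of protein-coding genes with at least 100 counts in each pair. The nearest were JAK2, a cytokine receptor kinase gene (distance 0.032), RCOR1, a corepressor gene (0.079), FYN, a kinase of lymphocyte signalling (0.082), EPC1, a chromatin regulator gene (0.090), and RAD51D, a recombination repair gene (0.096). JAK2 had 44 counts in HU and 69 in H2O, and 59 in APH and 56 in DMSO. FYN had 192 in HU and 315 in H2O, and 277 in APH and 257 in DMSO. The 4 libraries behind each distance are the same, and 2 of the ratios share H2O. HU vs H2O, 1 of the 3 ratios, is also the one by which the region was chosen. The distances leave out counting error, and JAK2 rests on 2 loops, so their order is loose.

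Genes that work with MYC were taken from 3 lists written from general knowledge. Of 13 genes of the MAX network, the partners and antagonists of MYC, 6 had a shared loop. Their median log2 ratio was 0.07 for HU vs H2O and 0.05 for APH vs DMSO. At least 1.5-fold higher in HU was 1 of the 6, and 6.69% of 4831 protein-coding genes with a shared loop were. This was MYCL, a MYC paralogue, whose 1 shared loop had 41 counts in HU and 18 in H2O (1.20, 0.37 to 2.09). For this loop H2O stood at -0.59 over DMSO. Between the vehicles MYCL was the 1 gene of the 6 at least 1.5-fold lower, where 3.48% of genes were. None was as much higher, where 2.86% were. MAX, the partner of MYC on DNA, had 129 counts in HU and 96 in H2O (0.44, 0.05 to 0.84), and 123 in APH and 83 in DMSO (0.24, -0.17 to 0.66). MXI1, a MAX-binding repressor gene, was the lowest in HU at -0.19 (-0.62 to 0.23), and MNT, another such gene, the lowest in APH at -0.28 (-0.80 to 0.23). None of the 6 was 1.5-fold higher or lower in APH, where 4.06% and 4.51% of genes were.

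Of 22 textbook MYC target genes, 7 had a shared loop, with a median of -0.15 for HU vs H2O and -0.09 for APH vs DMSO. At least 1.5-fold lower in HU was PTMA, which encodes prothymosin alpha, with 42 counts in HU and 79 in H2O (-0.90, -1.47 to -0.34), and 4.31% of all genes were. The highest in HU was SHMT2, a mitochondrial folate enzyme gene with 1 shared loop (0.50, -0.13 to 1.14). In APH the highest was ODC1, the ornithine decarboxylase gene of polyamine synthesis, with 42 counts in APH and 22 in DMSO (0.61, -0.17 to 1.42). ODC1 has 1 shared loop and was the 1 gene of the 7 at least 1.5-fold higher in APH, where 4.06% of all genes were. None was as much lower, where 4.51% of all genes were. The lowest was TFRC, the transferrin receptor gene (-0.36, -0.71 to -0.01).

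Of 14 transcription factor genes that act at B lymphoblastoid enhancers, 8 had a shared loop, with medians of -0.08 in HU vs H2O and -0.07 in APH vs DMSO. RELB, an NF-kB subunit gene with 1 shared loop, was lowest in both. RELB had 20 counts in HU and 28 in H2O (-0.47, -1.37 to 0.41), and 19 in APH and 23 in DMSO (-0.60, -1.56 to 0.34). In APH it was the 1 gene of the 8 at least 1.5-fold lower, where 4.51% of all genes were, and none was as much higher, where 4.06% were. In HU none of the 8 was 1.5-fold lower or higher, where 4.31% and 6.69% of all genes were. RBPJ, which encodes the DNA-binding partner of the viral protein EBNA2, was highest in HU at 0.21 (-0.30 to 0.72). IKZF1, an Ikaros family gene with 1 shared loop, was highest in APH at 0.37 (-0.58 to 1.37). As for the cell type, 7 of 8 B cell marker genes, 6 of 8 T cell marker genes and 5 of 6 myeloid marker genes had a listed loop in some library, where 47.2% of all protein-coding genes did. The 4 B cell markers with a shared loop were all below 0 in HU vs H2O, where 2404 of 4831 such protein-coding genes were. Each of the 4 intervals included 0. Their median was -0.32 in HU vs H2O and -0.06 in APH vs DMSO. The 3 T cell markers with a shared loop had medians of -0.19 and 0.14 in those contrasts, and no myeloid marker had a shared loop. A loop is not a measure of expression, so these lists do not check the labelled cell type.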

How the data were processed

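SMC1 HiChIP libraries, 4 in all with 1 per group, were analysed. The submitters' processing notes name bcl2fastq 2.17, MACS3 3.0.1 and hg38. Aligner and loop caller were not given in the sources used here. As deposited by the authors, the data are 1 headerless list of called loops per library, so columns were read from their values. The deposited counts are whole contact counts per pair of 5 kb bins, not normalized. A deposited signal that is not whole was taken as the caller's expected count, and a deposited column below 0.01 as its adjusted p-value. Total depth is unknown, and the lists hold 550828 counts in HU, 575756 in H2O, 732695 in APH and 449565 in DMSO.

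No pseudocount was used. The software was scipy 1.17.1, pandas 2.3.3, numpy 2.4.6 and matplotlib 3.10.9 under Python 3.11.15. Scaling used the library sums over the loops listed in all 4 libraries. Intervals are 95% exact conditional binomial intervals of ratios and Clopper-Pearson intervals of shares. No p-value was computed. Genes came from a RefSeq table of GRCh38.p14, the same assembly as hg38, and a gene's loops were those with an anchor on its body. The region, band, lists and rules were chosen with earlier results of these data known. Named were the loops on MYC, those with most counts, the 3 highest and 3 lowest per drug contrast and the extremes of each list. The steps were tested on simulated counts drawn independently for each loop. Those counts hold no copied reads, no dependence between adjacent bins and no listing limits, so the test does not cover these. Alternatives covered scaling, vehicle, loops used, minimum count, span, expected count and anchor matching.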

Additional observations from a re-analysis of the deposited data

How the results depend on the processing

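The pooled values of the region and of the window from 126 to 128 Mb rest on the same loops and are the same. HU vs H2O ran from -0.76 to -0.06 over 8 alternatives, a sign that the choice of region fixed and that shows no stability. It was -0.064 after division by the expected counts and -0.76 when pairs with anchors within 1 bin of each other were joined and the highest was taken. APH vs DMSO was -0.56 when scaled by all listed loops and turned to 0.079 after division by the expected counts. Its interval included 0 with loops listed in both libraries (-0.11, -0.27 to 0.05) and without the loop with most counts, an alternative added after seeing the data. For H2O vs DMSO, the interval excluded 0 with loops listed in both libraries (0.15, 0.006 to 0.28). H2O vs DMSO was -0.089 when scaled by all listed loops. That scaling shifts every ratio by 0.05 in HU vs H2O, -0.38 in APH vs DMSO and -0.24 in H2O vs DMSO. The cause of the values after division and with matched anchors was not tested. A pooled ratio of loops on the MYC gene body could not be computed, since none is listed in all 4 libraries. No paired analysis was possible because each group has 1 library. The 585 kb loop on MYC, with 16 counts in APH and 16 in DMSO, lies near the minimum of 12 counts. The MYC to PVT1 pairs have more counts but lie near the limit of 2 times the expected count.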
